A study of Mus musculus with 8 samples.

Results

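The collagen chain genes were followed in mouse pluripotent cells by RNA sequencing. They were taken as every gene whose symbol has the form of a collagen chain (Col, a type number, the letter a and a chain number), which gave 44 of the 23040 gene symbols in the deposited tables. Of these, 11 encode chains of fibrillar collagens, 8 encode chains of basement membrane collagens (type IV, Col15a1 and Col18a1) and 25 encode other types. The 8 libraries came from 4 groups of 2. Dnd1-KD were embryonic stem (ES) cells of strain 129/Ola, labelled wild type, at passages 10 to 12, in which Dnd1, an RNA-binding gene of the germ line, was knocked down. CDGC1 and CDGC6 are lines made from teratoma cells in the testes of new-born mice. Their strain is given as 129Sv/Dnd1ter/ter/Oct4deltaPE-GFP, so they lack functional Dnd1 and carry a reporter, and their passages are 15 to 18. Control cells were wild-type E14tg2a ES cells (129/Ola) of passages 10 to 12. All cells were kept in DMEM with serum and the cytokine LIF. Each derived line is a single line, and its origin, strain, genotype and passage all differ from those of the control, so that these cannot be told apart. The labels do not say how Dnd1 was knocked down. They also do not say whether a group's libraries are separate cultures, and the p-values therefore measure only how far these libraries spread, which can be technical.

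Collagens are secreted proteins in which chains wind together into a helix. Fibrillar types such as I, III and V form the banded fibres of connective tissue. Type IV forms the sheet-like network of basement membranes, with laminin, nidogen and perlecan, and type VI forms beaded filaments around cells. The helix is made in the endoplasmic reticulum, where prolyl and lysyl hydroxylases modify the chains and the chaperone Serpinh1 binds the folded helix. Outside the cell, proteases trim the ends of fibrillar procollagens and lysyl oxidases cross-link them. Early mouse embryos are known to lay down type IV collagen in the basement membranes that form around the epiblast.

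Levels are in FPKM (fragments per kilobase of transcript, scaled to the mapped fragments of a library), given for each library in the order of its replicate number. Differences are on the log2(FPKM + 1) scale with their standard error (SE), which understates the change of genes at low levels, and a gene was called at an adjusted p under 0.05 in limma. Ratios of mean FPKM are given beside them. The intervals in the files imply 10.7 M to 18.0 M fragments per library. Pou5f1, Sox2 and Nanog, which define pluripotent cells, were at 457 to 1339, 75.1 to 167 and 60.5 to 137 FPKM across the 8 libraries. Dnd1 had no value of its own in any library, so the knockdown itself was not measured here. Hprt, which E14tg2a is known to lack, was at 0.533 and 0.642 FPKM in Dnd1-KD, 124 and 121 FPKM in CDGC1, 123 and 133 FPKM in CDGC6 and 0.359 and 0.455 FPKM in control. In RNA from whole cultures, fewer cells of a type and less RNA per cell cannot be told apart.

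Of the 44 collagen genes, 19 had a value of their own and reached the filter of 1 FPKM in at least 2 libraries: 8 fibrillar, 4 basement membrane and 7 other chains. Col11a2 was joined with Rxrb into 1 entry in the Dnd1-KD and control libraries, and Col20a1 with Arfgap1 in the Dnd1-KD libraries, so neither was tested. The other 23 stayed under the filter. Because 1 group could meet the filter alone, as Dnd1-KD did for Col4a5 and CDGC1 did for Col16a1, counts over the 19 describe only genes that passed.

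Summed over the 42 collagen genes that were not joined with another gene, the level lay between 141 and 176 FPKM, at 176 and 152 FPKM in Dnd1-KD, 169 and 167 FPKM in CDGC1, 141 and 163 FPKM in CDGC6 and 143 and 144 FPKM in control. What made up that sum differed. Col18a1, whose product carries endostatin at its end and sits in basement membranes, was the highest collagen gene in all 8 libraries. It made up 34.2% and 29.2% of the sum in Dnd1-KD, 35.3% and 38.7% in CDGC1, 59.4% and 58.7% in CDGC6 and 68.5% and 65.6% in control. Type IV chains summed to 76.3 and 69.1 FPKM in Dnd1-KD, 12.2 and 10.7 FPKM in CDGC1, 10.1 and 10.1 FPKM in CDGC6 and 16.1 and 17.6 FPKM in control. Fibrillar chains summed to 21.2 and 21.5 FPKM in Dnd1-KD, 78.6 and 61.3 FPKM in CDGC1, 29.9 and 39.0 FPKM in CDGC6 and 15.8 and 17.4 FPKM in control. Dnd1-KD thus stood apart by type IV and CDGC1 by fibrillar chains, and neither sum overlapped with that of any other group. Col5a1 alone gave 42.5 and 30.6 FPKM of the fibrillar sum in CDGC1 and 8.0 and 7.04 FPKM in CDGC6. Without that gene, the fibrillar sums of CDGC1 and CDGC6 overlap. These sums are descriptions with no test. They rest on FPKM of transcripts assembled in each library, and the part of that assembly in them was not tested.

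**Figure D1:**
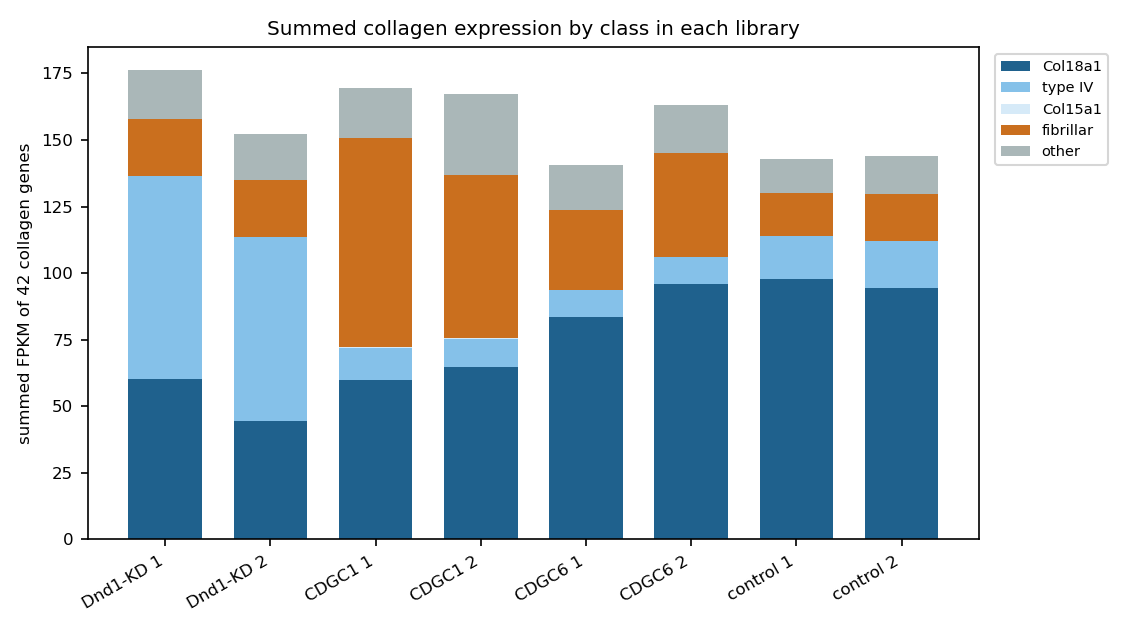
Stacked bars give the summed FPKM of 42 collagen genes in each of the 8 libraries, split into Col18a1, type IV, Col15a1, fibrillar and other chains. The type IV band reaches 76.3 and 69.1 FPKM in Dnd1-KD and the fibrillar band 78.6 and 61.3 FPKM in CDGC1, while Col18a1 fills most of the bar in CDGC6 and control. The Col15a1 band is too thin to see, at under 0.1 FPKM.

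In Dnd1-KD cells, the type IV genes Col4a1, Col4a2 and Col4a5 rose 4.04-fold, 4.80-fold and 5.36-fold over control, with the fibril-surface collagen Col12a1 (6.38-fold) and the fibrillar chains Col11a1 (3.03-fold) and Col3a1 (2.68-fold). Col18a1 fell to 0.544 of its control level. These were 6 collagen genes higher and 1 lower of the 19 tested, against 20.7% of all 11890 genes tested called higher and 15.5% called lower (36.2% in either direction). The members called were 36.8% of the 19, so their number was near the background. Of those higher, Col4a5 reached 1 FPKM only in Dnd1-KD, Col12a1 only in Dnd1-KD and CDGC1, and Col3a1 in every group but control. They thus passed the filter through groups where they were high. The median difference was 0.23 over the 19 and 0.02 over all genes tested.

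Col4a1 and Col4a2 encode the chains of the type IV network found in nearly all basement membranes. Col4a1 was at 44.4 and 40.5 FPKM in Dnd1-KD and 10.0 and 11.0 FPKM in control, a difference of 1.92 ± 0.10 (SE, adjusted p = 0.000146). Col4a2 was at 27.7 and 24.7 FPKM in Dnd1-KD and 5.26 and 5.67 FPKM in control, a difference of 2.07 ± 0.12 (adjusted p = 0.000245). In FPKM, the Dnd1-KD libraries were the 2 highest of the 8 for both genes, with no overlap with any other group. The intervals behind Col4a1 imply 2058 and 1732 fragments in Dnd1-KD and 1480 and 2300 in control, which overlap. Those behind Col4a2 imply 1904 and 1466 fragments in Dnd1-KD and 1089 and 1146 in control, a smaller difference than that in FPKM. The FPKM rest on transcripts assembled in each library, and their part in the type IV result was not tested. Col4a5, on chromosome X and known for its mutation in Alport syndrome, was at 3.67 and 3.45 FPKM in Dnd1-KD and 0.609 and 0.720 FPKM in control. Its difference was 1.45 ± 0.08 (adjusted p = 0.000264), and no other group reached 1 FPKM. Its values rest on 1079 and 476 implied fragments in Dnd1-KD and 220 and 140 in control. All 3 genes stayed called when any 1 library was left out. The other type IV genes stayed under the filter. Col4a6, which pairs with Col4a5 in some basement membranes, was at 0.361 and 0.270 FPKM in Dnd1-KD and 0.172 and 0.171 FPKM in control. Col4a3 and Col4a4, known from the basement membrane of the kidney glomerulus, were at 0.037 to 0.104 FPKM in Dnd1-KD and 0.017 to 0.035 FPKM in control.

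The type IV genes lie in pairs, head to head. Col4a1 (chromosome 8, 11198423 to 11312826, minus strand) and Col4a2 (chromosome 8, 11312805 to 11449287, plus strand) overlap at their 5′ ends by 22 bases in the GENCODE vM21 annotation of mm10. Col4a5 and Col4a6 are 1308 bases apart on chromosome X, and Col4a3 and Col4a4 are 71 bases apart on chromosome 1. Because Col4a1 and Col4a2 moved together, stretches of their promoters are shown, with those of Col4a5 and of Col1a2, the fibrillar chain gene with the largest difference in CDGC1. They come from RefSeq windows of GRCm38.p6 that run from 250 bases before to 50 bases after the start site. Each is read 5′ to 3′ on the strand of its gene, and the capitals mark the letters CCAAT or their reverse complement ATTGG:
Col4a1, chr8:11312954-11312983, minus strand: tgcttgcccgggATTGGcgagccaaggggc
Col4a2, chr8:11312761-11312790, plus strand: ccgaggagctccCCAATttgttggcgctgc
Col4a5, chrX:141475211-141475240, plus strand: taagagaagctgCCAATgaacaaacgagaa
Col1a2, chr6:4505497-4505526, plus strand: aaaagaatggaaCCAATttaagaagccccg
Counted from the start site, the letters begin at -145 in Col4a1, -32 in Col4a2, -196 in Col4a5 and -109 in Col1a2, whose window holds a second match at the start site itself. CCAAT or ATTGG was found in 13 of 38 windows of 35 collagen genes (34.2%), and in 12289 of all 32851 windows (37.4%), so collagen windows held it about as often as others. GGGCGG or its reverse complement CCGCCC, the letters of the GC box, was found in 23 of the 38 collagen windows (60.5%) and in 35.7% of all windows. Both strands were searched, and no test was made of either share. A match is a description of letters and not evidence of a bound factor.

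**Figure D2:**
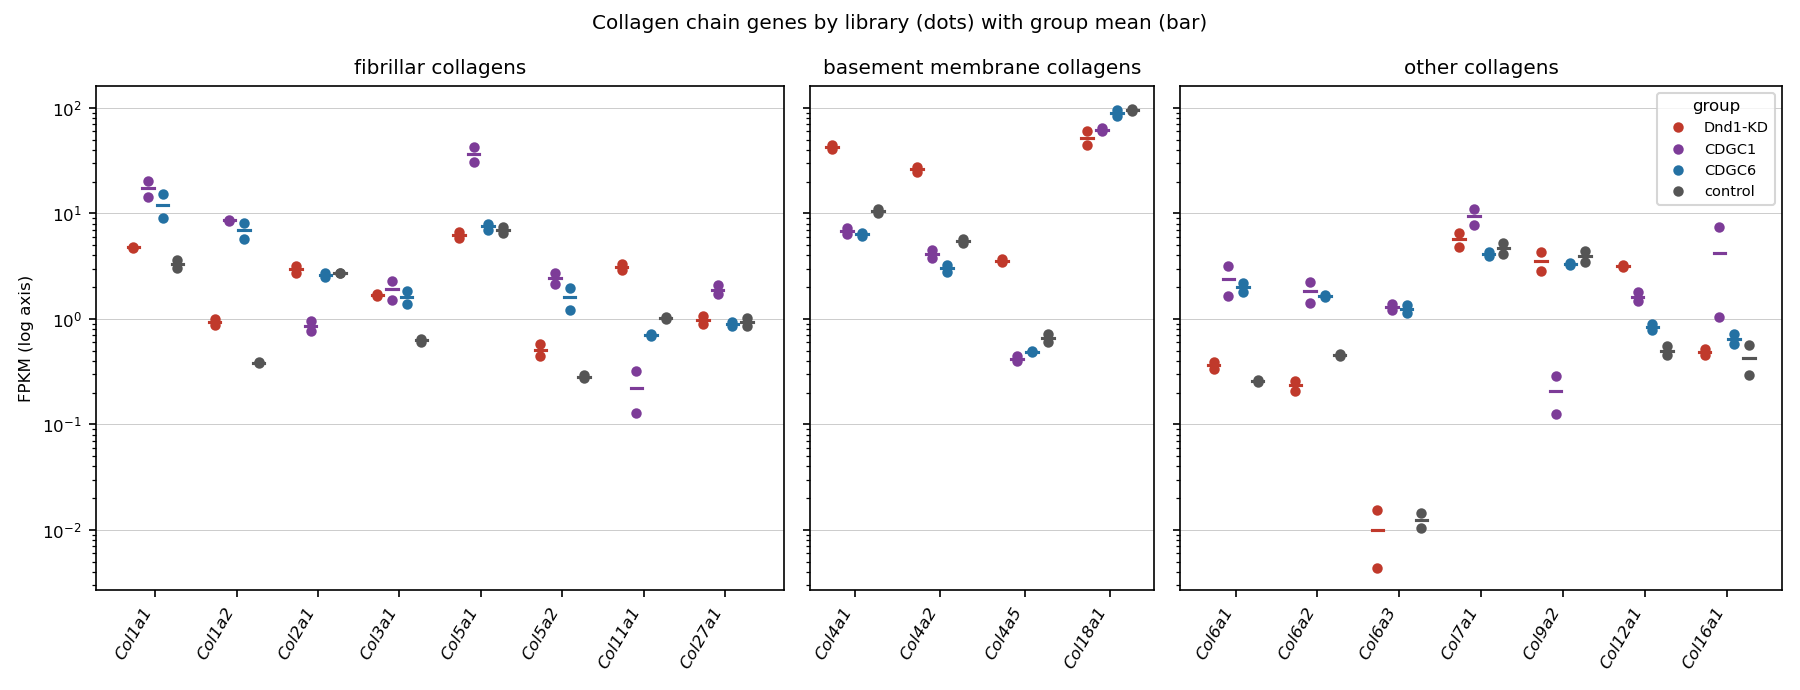
Dots give the FPKM (log axis) of the 19 collagen genes that passed the filter in each library, and bars give the group mean. Each gene has 4 columns, in the order Dnd1-KD, CDGC1, CDGC6 and control. Dnd1-KD lies above the rest for Col4a1, Col4a2, Col4a5, Col11a1 and Col12a1, and the derived lines lie above both ES cell groups for Col1a1, Col1a2, Col5a2, Col6a1, Col6a2 and Col6a3.

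Among the other genes called in Dnd1-KD, Col12a1, a collagen that binds the surface of fibrils, was at 3.28 and 3.11 FPKM in Dnd1-KD and 0.453 and 0.549 FPKM in control (difference 1.48 ± 0.10, adjusted p = 0.000488). Col11a1, a minor fibrillar chain best known in cartilage, was at 3.30 and 2.89 FPKM in Dnd1-KD and 1.0 and 1.04 FPKM in control (1.02 ± 0.11, adjusted p = 0.00210). Dnd1-KD was the highest group for both. Col3a1, the chain of the fibrillar collagen of skin and vessels, was at 1.71 and 1.65 FPKM in Dnd1-KD and 0.649 and 0.607 FPKM in control (0.72 ± 0.15, adjusted p = 0.0154). This call was lost whenever a Dnd1-KD or a control library was left out. Col18a1 was at 60.2 and 44.4 FPKM in Dnd1-KD and 97.9 and 94.5 FPKM in control (-0.88 ± 0.15, adjusted p = 0.00743). The part of the transcripts assembled in each library in this difference was not tested. In implied fragments, Col18a1 was at 2064 and 1643 in Dnd1-KD and 2043 and 2027 in control, which overlap. It was the only member called lower, and it lost the call without control replicate 1. Col1a2, a type I chain, was at 0.882 and 0.995 FPKM in Dnd1-KD and 0.381 and 0.391 FPKM in control, and its adjusted p of 0.05001 did not pass. It passed without either CDGC6 library and with a pseudocount of 0.1. The remaining 11 of the 19 had differences of -0.24 to 0.42 and did not pass.

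Extraembryonic endoderm is known for strong basement membrane collagen synthesis, so its markers stand beside these values. The 12 markers summed to 14.1 and 14.7 FPKM in Dnd1-KD and 6.15 and 5.88 FPKM in control. Of the 5 that passed the filter, 4 were called higher, against 20.7% of all genes tested. Among them was the endoderm factor Gata4, at 1.98 and 2.46 FPKM in Dnd1-KD against 0.724 and 0.693 FPKM in control. Gata4 reached 1 FPKM only in Dnd1-KD, so it passed the filter through the group where it was high. The endoderm factor Gata6, also called higher, was at 1.29 and 1.70 FPKM in Dnd1-KD against 0.238 and 0.236 FPKM in control. Outside Dnd1-KD it reached 1 FPKM only in the second CDGC1 library (1.35 FPKM), so it too passed the filter through Dnd1-KD. Of the 12, 7 were under 1 FPKM in all 8 libraries. Sox17, which defines that lineage, was at 0.237 and 0.331 FPKM in Dnd1-KD and 0.0646 and 0.0683 FPKM in control, without overlap. Sox7 was at 0.285 and 0.322 FPKM in Dnd1-KD and 0.364 and 0.294 FPKM in control, and Ttr was listed at 0 in all 8 libraries. Neither Sox gene reached the filter. All 6 pluripotency markers were called lower in Dnd1-KD than in control, against 15.5% of all genes tested. They summed to 997 and 815 FPKM in Dnd1-KD and 1739 and 1726 FPKM in control. The part of either list in the type IV result was not tested.

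In CDGC1, most fibrillar chains and the type VI chains that passed the filter rose against control. Col1a1 and Col1a2, the chains of type I collagen, rose 5.23-fold and 22.2-fold, and Col5a1 and Col5a2, the type V chains that join type I fibrils, rose 5.21-fold and 8.58-fold. The type VI genes Col6a1, Col6a2 and Col6a3 rose 9.35-fold, 4.04-fold and 105-fold, the last over a control level near 0. Col2a1, Col9a2 and Col11a1, known as cartilage collagens, fell together with Col4a1 and Col18a1. In all, 11 collagen genes were higher and 5 lower of the 19 tested, against 23.6% of all genes tested called higher and 26.9% called lower (50.5% in either direction). Of those higher, Col1a2, Col5a2, Col6a1, Col6a2 and Col6a3 reached 1 FPKM only in CDGC1 and CDGC6, so they passed the filter through the derived lines. Col12a1 reached it only in Dnd1-KD and CDGC1, and Col3a1 in every group but control. Both thus also passed through groups where they were called higher. All 8 fibrillar chains tested were called, 6 of them higher. The median difference was 0.83 over the 19 and -0.03 over all genes tested.

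Col1a1 was at 20.3 and 14.4 FPKM in CDGC1 and 3.04 and 3.58 FPKM in control (difference 2.07 ± 0.25, adjusted p = 0.000960). Col1a2 was at 8.52 and 8.64 FPKM in CDGC1 and 0.381 and 0.391 FPKM in control (2.79 ± 0.15, adjusted p = 4.42e-05). Both type I genes were thus above control in each CDGC1 library, with no overlap. Col5a1 was at 42.5 and 30.6 FPKM in CDGC1 and 6.58 and 7.46 FPKM in control (2.21 ± 0.17, adjusted p = 0.000142). The intervals in the files imply 2514 and 1852 fragments behind the CDGC1 values and 1380 and 1065 behind the control values, a smaller difference than that in FPKM. The FPKM rest on transcripts assembled in each library, and their part in the result was not tested. Col5a2 was at 2.71 and 2.16 FPKM in CDGC1 and 0.291 and 0.277 FPKM in control (1.42 ± 0.16, adjusted p = 0.000722). Col3a1, at 1.53 and 2.30 FPKM in CDGC1 and 0.649 and 0.607 FPKM in control (0.83 ± 0.15, adjusted p = 0.00535), lies on chromosome 1 next to Col5a2, which runs the other way 24614 bases off. Col27a1, a fibrillar chain of developing cartilage, was at 1.72 and 2.08 FPKM in CDGC1 and 0.857 and 1.02 FPKM in control (0.58 ± 0.10, adjusted p = 0.00473).

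The type VI chains assemble as a trimer of different chains. Col6a1, Col6a2 and Col6a3 reached 1 FPKM only in the derived lines, so they passed the filter through the groups where they were high. The type VI genes under the filter did not rise with them. In the fit without a filter Col6a4, at 0.0437 and 0.0157 FPKM in CDGC1 and 0.907 and 0.479 FPKM in control, and Col6a6, at 0.00937 and 0 FPKM in CDGC1 and 0.0791 and 0.0786 FPKM in control, were called lower. Col6a5 was at 0.514 and 0.315 FPKM in CDGC1 and 0.926 and 0.840 FPKM in control and was not called. Col6a1 was at 1.65 and 3.18 FPKM in CDGC1 and 0.264 and 0.252 FPKM in control (1.40 ± 0.21, adjusted p = 0.00218). Col6a2 was at 1.42 and 2.26 FPKM in CDGC1 and 0.448 and 0.461 FPKM in control (0.95 ± 0.14, adjusted p = 0.00246). Col6a3, the longest of these chains, was at 1.22 and 1.39 FPKM in CDGC1 and 0.0143 and 0.0104 FPKM in control (1.18 ± 0.09, adjusted p = 0.000134). Its control values rest on 5.4 and 1.4 implied fragments, so the size of its fold is poorly set. Col7a1, which makes the anchoring fibrils under epithelia, was at 7.82 and 11.0 FPKM in CDGC1 and 4.11 and 5.28 FPKM in control (0.86 ± 0.20, adjusted p = 0.0138). Its entry is shared with the microRNA gene Mir711 in all 8 libraries, and the call was lost without CDGC1 replicate 2 or control replicate 1. Col12a1 was at 1.79 and 1.47 FPKM in CDGC1 and 0.453 and 0.549 FPKM in control (0.81 ± 0.10, adjusted p = 0.000981). Col16a1, a collagen associated with fibrils, had 126 and 229 implied fragments in CDGC1, a smaller gap than that in FPKM. It was at 1.04 and 7.36 FPKM in CDGC1 and 0.560 and 0.294 FPKM in control. With libraries that far apart its difference of 1.54 ± 0.59 did not pass (adjusted p = 0.0720), but it passed without either CDGC1 library.

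Of the genes lower in CDGC1, Col9a2, a chain that decorates cartilage fibrils, was at 0.124 and 0.290 FPKM in CDGC1 and 3.50 and 4.43 FPKM in control (-2.04 ± 0.18, adjusted p = 0.000264). The file's interval around the value of the second CDGC1 library runs up to 10725 FPKM, so that value is poorly set. Col2a1, the main cartilage chain, was at 0.950 and 0.773 FPKM in CDGC1 and 2.75 and 2.73 FPKM in control (-1.01 ± 0.10, adjusted p = 0.000502). Col11a1 was at 0.318 and 0.128 FPKM in CDGC1 and 1.0 and 1.04 FPKM in control (-0.73 ± 0.11, adjusted p = 0.00205), a call that was lost under quantile normalization. These 3 genes were lower in both CDGC1 libraries than in any of the other 6. Col4a1 was at 7.22 and 6.37 FPKM in CDGC1 and 10.0 and 11.0 FPKM in control (-0.56 ± 0.10, adjusted p = 0.00395). Col18a1 was at 59.9 and 64.7 FPKM in CDGC1 and 97.9 and 94.5 FPKM in control (-0.62 ± 0.15, adjusted p = 0.0141), and lost the call without CDGC1 replicate 1 or either control library. Col4a2, at 4.49 and 3.79 FPKM in CDGC1 and 5.26 and 5.67 FPKM in control, did not pass (adjusted p = 0.0537), but passed without CDGC1 replicate 1 and in the fit without a trend. Col4a5, at 0.397 and 0.444 FPKM in CDGC1 and 0.609 and 0.720 FPKM in control, did not pass either (-0.23 ± 0.08, adjusted p = 0.0615). Its call depended on the processing. It was called lower with a pseudocount of 0.1, with no filter and in the fit without a trend, and higher, by 0.30, under quantile normalization.

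**Figure D3:**
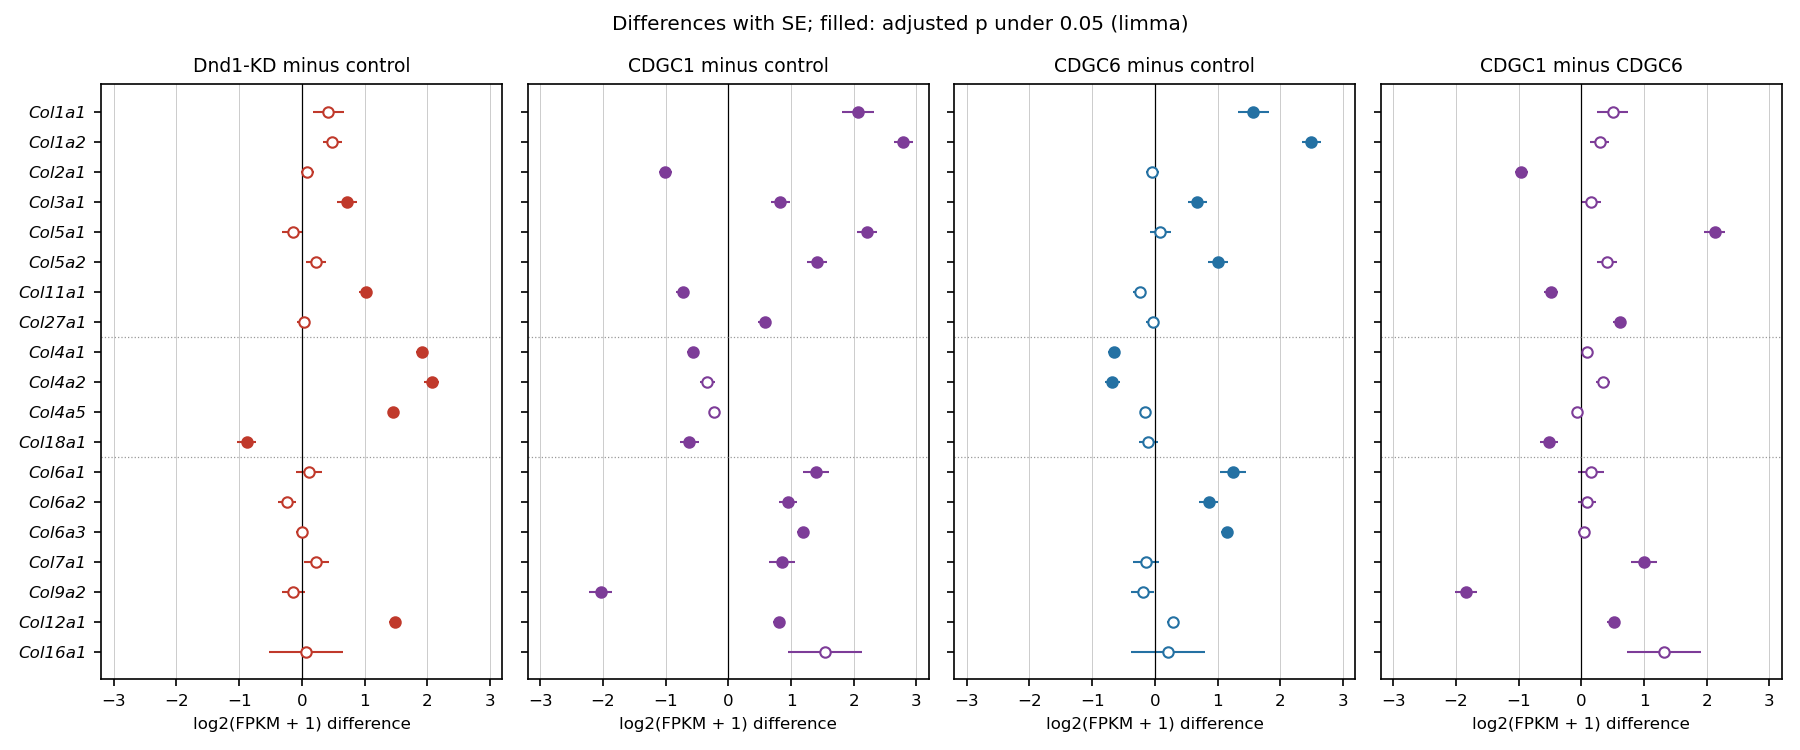
Each row is 1 of the 19 collagen genes tested and each panel 1 comparison, with the log2(FPKM + 1) difference on the x axis, bars of 1 SE and filled dots where the adjusted p in limma was under 0.05. Type IV genes lie between 1.45 and 2.07 in the Dnd1-KD panel, while type I, V and VI genes lie between 0.95 and 2.79 in the CDGC1 panel against control.

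In CDGC6, type I and III chains, the type VI chains that passed the filter and Col5a2 were higher than in control, and Col4a1 and Col4a2 were lower. These were 7 collagen genes higher and 2 lower of the 19 tested, against 8.49% of all genes tested called higher and 10.2% called lower (18.7% in either direction). Of those higher, Col1a2, Col5a2, Col6a1, Col6a2 and Col6a3 passed the filter only through the derived lines, where they were high. Col3a1 reached 1 FPKM in every group but control, so it too passed through groups where it was called higher. The median difference was 0.09 over the 19 and -0.01 over all genes tested. Without either control library, only Col1a2 and Col6a3 stayed called, so 2 were higher and none lower. The number of all genes called was smaller as well, at 217 higher and 205 lower without control replicate 1 and 270 and 222 without control replicate 2.

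Col1a2 was at 5.67 and 8.11 FPKM in CDGC6 and 0.381 and 0.391 FPKM in control, a ratio of 17.9 (difference 2.49 ± 0.15, adjusted p = 0.000620). Col6a3 was at 1.14 and 1.36 FPKM in CDGC6 and 0.0143 and 0.0104 FPKM in control (1.15 ± 0.09, adjusted p = 0.00130). These were the 2 genes whose calls held whichever library was left out. Col1a1 was at 9.12 and 15.2 FPKM in CDGC6 and 3.04 and 3.58 FPKM in control (1.57 ± 0.25, adjusted p = 0.0118). Col5a2 was at 1.22 and 1.98 FPKM in CDGC6 and 0.291 and 0.277 FPKM in control (1.0 ± 0.16, adjusted p = 0.0118). Neither gene overlapped with control, although the CDGC6 libraries differed clearly from each other. Col6a1, at 1.80 and 2.18 FPKM in CDGC6 and 0.264 and 0.252 FPKM in control, differed by 1.25 ± 0.21 (adjusted p = 0.0133). Col6a2, at 1.60 and 1.67 FPKM in CDGC6 and 0.448 and 0.461 FPKM in control, differed by 0.86 ± 0.14 (adjusted p = 0.0136). Col3a1, at 1.38 and 1.85 FPKM in CDGC6 and 0.649 and 0.607 FPKM in control, differed by 0.68 ± 0.15 (adjusted p = 0.0322). The calls of Col3a1, Col6a1 and Col6a2 were also lost without CDGC6 replicate 2, and that of Col3a1 without either Dnd1-KD library, which leaves the estimate of the spread with fewer libraries. Col4a1 was at 6.51 and 6.17 FPKM in CDGC6 and 10.0 and 11.0 FPKM in control (-0.65 ± 0.10, adjusted p = 0.00999). Col4a2 was at 2.81 and 3.27 FPKM in CDGC6 and 5.26 and 5.67 FPKM in control (-0.68 ± 0.12, adjusted p = 0.0142), and also lost the call without CDGC6 replicate 1. Col5a1, at 8.0 and 7.04 FPKM in CDGC6, overlapped with control. So did Col18a1, at 83.6 and 95.8 FPKM in CDGC6. The comparisons against control share the control libraries, so agreement between them is not independent.

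Fibroblasts and feeder cells express type I, III, V and VI collagens, so their markers stand beside the values of the derived lines. The 12 markers summed to 14.1 and 13.5 FPKM in Dnd1-KD, 50.8 and 45.8 FPKM in CDGC1, 41.6 and 60.2 FPKM in CDGC6 and 9.30 and 9.87 FPKM in control. Of the 8 that passed the filter, 6 were called higher and 1 lower in CDGC1, and 5 higher in CDGC6. Over all genes tested 23.6% were called higher and 26.9% lower in CDGC1, and 8.49% and 10.2% in CDGC6. Fbln2, Pdgfrb, Postn and Prrx1 reached 1 FPKM only in the derived lines, so they passed the filter through groups where they were high. The marker called lower in CDGC1, Twist1, was at 1.63 and 2.30 FPKM there and 3.10 and 3.08 FPKM in control. In the derived lines the sum was carried mostly by S100a4 and Fbln2. S100a4 was at 28.5 and 19.9 FPKM in CDGC1, 20.7 and 35.9 FPKM in CDGC6 and 1.93 and 2.39 FPKM in control. Fbln2, a matrix glycoprotein, was at 8.61 and 7.80 FPKM in CDGC1, 6.20 and 11.3 FPKM in CDGC6 and 0.420 and 0.364 FPKM in control. Prrx1, a mesenchymal factor, was at 1.02 and 0.924 FPKM in CDGC1, 0.809 and 1.31 FPKM in CDGC6 and 0.0724 and 0.0807 FPKM in control, and was called higher in both lines. Postn, a matrix protein of fibroblasts, was at 0.745 and 2.17 FPKM in CDGC1, 1.19 and 1.1 FPKM in CDGC6 and 0.0432 and 0.0734 FPKM in control, and was likewise called higher in both. Twist2 was at 5.83 and 5.39 FPKM in CDGC1, where it was called higher, 1.33 and 1.21 FPKM in CDGC6 and 0.671 and 0.664 FPKM in control. Dcn, Lum and Dpt, genes of mature fibroblasts, were under 1 FPKM in all 8 libraries. Dcn was at 0.0884 and 0.387 FPKM in CDGC1, 0.568 and 0.310 FPKM in CDGC6 and 0.0994 and 0.116 FPKM in control. Dpt was at 0 and 0.138 FPKM in CDGC1 and 0.273 and 0.162 FPKM in CDGC6, and was listed at 0 in both control libraries. Lum was at no more than 0.0563 FPKM in any library. The part of these markers in the fibrillar and type VI result was not tested. Markers of extraembryonic endoderm summed to 14.5 and 49.7 FPKM in CDGC1 and 11.9 and 7.87 FPKM in CDGC6, of which Foxa2 was 8.15 and 38.6 FPKM in CDGC1 and 5.74 and 2.71 FPKM in CDGC6. Markers of endothelium summed to 0.497 to 7.43 FPKM over the 8 libraries, those of chondrocytes to 1.5 to 3.90 FPKM and those of somatic testis cells to 3.59 to 11.8 FPKM, and 2 genes of each list passed the filter.

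The derived lines differed from each other in 8 collagen genes, 4 higher and 4 lower in CDGC1 of the 19 tested, against 23.0% of all genes tested called higher and 24.1% called lower (47.2% in either direction). This was a direct test of their difference, and the 42.1% of the 19 that were called is no more than that background. The median difference was 0.16 over the 19 and -0.02 over all genes tested. Col5a1 was 4.86-fold higher in CDGC1 than in CDGC6, at 42.5 and 30.6 FPKM in CDGC1 and 8.0 and 7.04 FPKM in CDGC6 (2.12 ± 0.17, adjusted p = 0.000223). The intervals behind these values imply 2514 and 1852 fragments in CDGC1 and 2180 and 1281 in CDGC6, which overlap. The FPKM rest on transcripts assembled in each library, and their part in this difference was not tested. Col7a1 was at 7.82 and 11.0 FPKM in CDGC1 and 4.35 and 3.95 FPKM in CDGC6 (1.0 ± 0.20, adjusted p = 0.00849). Smaller rises were called for Col27a1 (2.13-fold, 0.61 ± 0.10, adjusted p = 0.00416) and Col12a1 (1.94-fold, 0.51 ± 0.10, adjusted p = 0.00675). Col9a2 was at 0.124 and 0.290 FPKM in CDGC1 and 3.22 and 3.42 FPKM in CDGC6 (-1.84 ± 0.18, adjusted p = 0.000498). Col2a1 was at 0.950 and 0.773 FPKM in CDGC1 and 2.5 and 2.75 FPKM in CDGC6 (-0.96 ± 0.10, adjusted p = 0.000729). Both cartilage chains were thus lower in CDGC1 than in CDGC6. Of the 7 chondrocyte markers, 2 passed the filter, Comp and Matn3, and both were called lower in CDGC1 than in CDGC6. Matn3 reached 1 FPKM only in CDGC6, so it passed the filter through the group where it was high. The 7 markers summed to 1.5 and 1.98 FPKM in CDGC1 and 3.90 and 3.19 FPKM in CDGC6. Sox9, under 0.3 FPKM in all 8 libraries, went the other way. It was at 0.214 and 0.287 FPKM in CDGC1 and 0.0840 and 0.0958 FPKM in CDGC6. The part of these markers in the result was not tested. Col11a1 was at 0.318 and 0.128 FPKM in CDGC1 and 0.689 and 0.723 FPKM in CDGC6 (-0.48 ± 0.11, adjusted p = 0.0115), but its difference was 0.08 and not called under quantile normalization. Col18a1 was at 59.9 and 64.7 FPKM in CDGC1 and 83.6 and 95.8 FPKM in CDGC6 (-0.52 ± 0.15, adjusted p = 0.0296), and lost the call without any CDGC1, CDGC6 or control library. The type I and type VI genes did not pass in this comparison. Their differences were 0.50 ± 0.25 for Col1a1, 0.30 ± 0.15 for Col1a2 and 0.04 to 0.16 for the 3 type VI genes, which does not show that the lines have equal levels. Under quantile normalization 11 collagen genes were higher in CDGC1, Col6a2 and Col6a3 among them. Without CDGC6 replicate 2, Col1a1, Col1a2 and Col5a2 were called higher, and without CDGC1 replicate 1, Col6a1, Col6a2 and Col16a1 were.

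Partner chains of 1 trimer were not at fixed ratios. Col1a1 exceeded Col1a2 by 5.33 and 4.83 times in Dnd1-KD, 2.38 and 1.66 times in CDGC1, 1.61 and 1.87 times in CDGC6 and 7.98 and 9.16 times in control. Type I collagen is known as a trimer with a larger share of the Col1a1 than of the Col1a2 product, and the ratio of FPKM was lowest in the derived lines, whose ranges overlapped. Col5a1 exceeded Col5a2 by 13.2 and 11.5 times in Dnd1-KD, 15.7 and 14.2 times in CDGC1, 6.56 and 3.57 times in CDGC6 and 22.6 and 26.9 times in control. The ratio of Col6a1 to Col6a2 was 1.49 and 1.62 in Dnd1-KD, 1.16 and 1.41 in CDGC1, 1.12 and 1.30 in CDGC6 and 0.589 and 0.547 in control. Of these 4 pairs, Col4a1 and Col4a2 had the narrowest range, with Col4a1 over Col4a2 at 1.60 and 1.64 in Dnd1-KD, 1.61 and 1.68 in CDGC1, 2.31 and 1.89 in CDGC6 and 1.91 and 1.94 in control. These ratios are descriptions with no test.

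**Figure D4:**
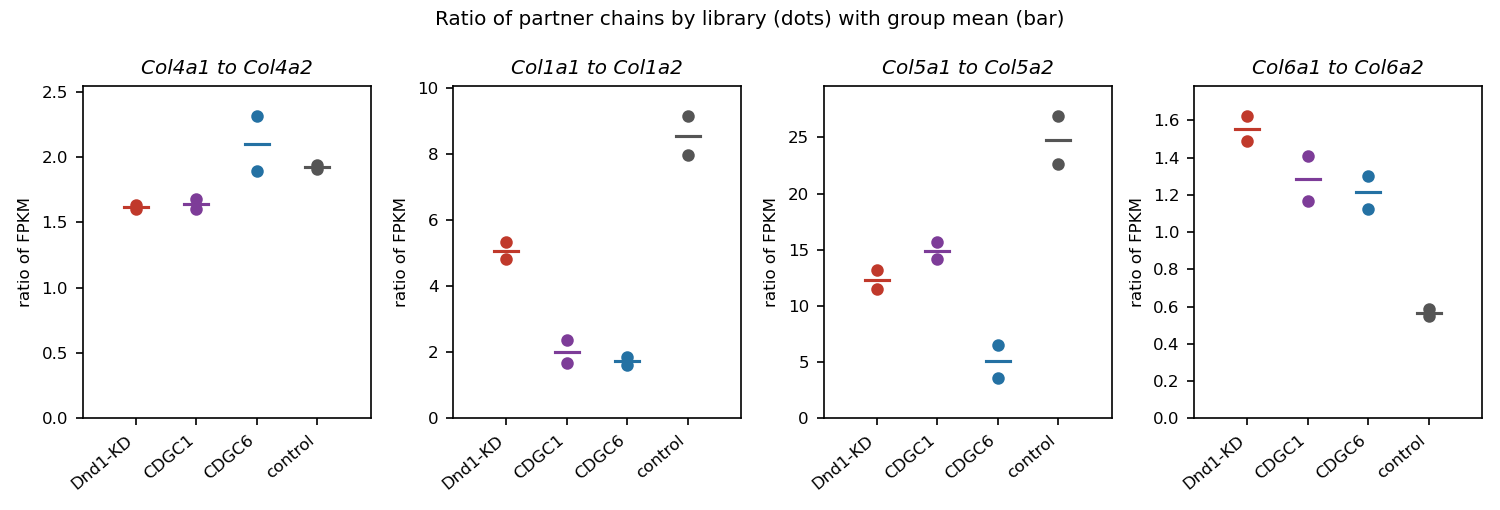
Dots give the ratio of the FPKM of 2 partner chains in each library and bars the group mean, with a linear axis from 0 in each panel. Col4a1 to Col4a2 stays between 1.60 and 2.31 in all 8 libraries, while Col1a1 to Col1a2 runs from 1.61 in CDGC6 to 9.16 in control.

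Of the 23 collagen genes under the filter, 2 are fibrillar (Col5a3 and Col24a1), 4 belong to basement membranes (Col4a3, Col4a4, Col4a6 and Col15a1) and 17 are of other types. The highest were Col23a1, a membrane collagen, at 0.360 and 1.11 FPKM in CDGC1, and the type VI genes Col6a5 and Col6a4, at up to 0.992 and 0.915 FPKM in the first Dnd1-KD library. Col9a3, which overlaps Tcfl5, was listed at 0 in all 8 libraries, and an exact 0 in these tables can be a failed estimate. Col10a1, the collagen of hypertrophic cartilage, was at 0.805 and 0.135 FPKM in CDGC1 and 0.0823 and 0.794 FPKM in CDGC6, with no more than 0.0265 FPKM in the ES cell groups. The libraries of each derived line thus disagreed about it.

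Genes that modify and secrete collagen were counted next. Of the 19 listed, 17 passed the filter, and 10 were higher and 2 lower in Dnd1-KD, 6 higher and 2 lower in CDGC1 and 0 higher and 2 lower in CDGC6, each against control. Over all genes 20.7% were called higher and 15.5% lower in Dnd1-KD, 23.6% and 26.9% in CDGC1 and 8.49% and 10.2% in CDGC6, so the number called in CDGC1 was near the background. Their median differences were 0.42, 0.23 and -0.09. Each median stands beside one of -0.03 to 0.02 over all genes tested, and how the groups differ over the list was not tested. Colgalt1, counted as lower in Dnd1-KD, was tested as 1 unit with Fam129c and Pgls, so that call is not of Colgalt1 alone. Serpinh1, the collagen-binding chaperone, averaged 176 ± 22.4 FPKM in Dnd1-KD, 161 ± 8.26 FPKM in CDGC1, 45.3 ± 3.66 FPKM in CDGC6 and 46.2 ± 6.35 FPKM in control (SD, n = 2 each). It rose by 1.91 in Dnd1-KD (adjusted p = 0.000574) and by 1.78 in CDGC1 (adjusted p = 0.000128), and CDGC1 was also above CDGC6 (1.81, adjusted p = 0.000166). Plod2, a lysyl hydroxylase, was higher in Dnd1-KD, at 81.9 ± 6.89 FPKM, and lower in CDGC6, at 21.5 ± 3.02 FPKM, than in control, at 35.2 ± 0.516 FPKM (1.19 with adjusted p = 0.00157, and -0.69 with adjusted p = 0.0118). The CDGC6 call was lost without either control library. The prolyl hydroxylase subunits P4ha2 and P4hb rose in Dnd1-KD (1.16 and 0.77), and P4ha1 rose in CDGC1 (1.30, adjusted p = 0.000902). Crtap, part of a prolyl 3-hydroxylase complex, was lower in CDGC1 than in control (-0.71) and than in CDGC6 (-0.73). In CDGC1 against CDGC6, 9 of the 17 were higher and 1 lower, against 23.0% and 24.1% of all genes.

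Of 16 genes for procollagen processing and cross-linking, 12 passed, with 6 higher and 3 lower in Dnd1-KD, 5 higher and 4 lower in CDGC1 and 1 higher and 3 lower in CDGC6 against control, and 6 higher and 4 lower in CDGC1 against CDGC6. Over all genes 36.2%, 50.5%, 18.7% and 47.2% were called in these comparisons. Pcolce, counted as lower in Dnd1-KD, in CDGC1 and in CDGC1 against CDGC6, was tested as 1 unit with Fbxo24 and Mospd3. Summed under its own symbol it was at 20.49 and 20.01 FPKM in Dnd1-KD and 34.14 and 33.15 FPKM in control. In CDGC1 it was at 42.16 and 22.24 FPKM and in CDGC6 at 21.92 and 27.49 FPKM. These values of CDGC1 overlap with those of CDGC6 and control, while those of Dnd1-KD lay below control. Such a sum counts an entry joined with other genes in full, so the calls are not of Pcolce alone. The medians of the list were 0.25, -0.04, -0.01 and 0.28. Bmp1, a protease that trims procollagens, averaged 20.4 ± 0.704 FPKM in Dnd1-KD, 3.91 ± 0.341 FPKM in CDGC6 and 8.15 ± 0.234 FPKM in control. It rose in Dnd1-KD (1.23, adjusted p = 0.000625) and fell in CDGC6 (-0.90, adjusted p = 0.00243). The lysyl oxidase Lox averaged 3.2 ± 0.475 FPKM in Dnd1-KD and 0.658 ± 0.113 FPKM in control (1.34, adjusted p = 0.00176). Its relative Loxl2 averaged 13.9 ± 0.450 FPKM in Dnd1-KD and 5.54 ± 0.0280 FPKM in control (1.18, adjusted p = 0.00157). Pxdn, the peroxidase that forms the sulfilimine bonds of type IV collagen, averaged 28.3 ± 0.0175 FPKM in CDGC1, 11.7 ± 2.05 FPKM in CDGC6 and 8.75 ± 0.108 FPKM in control. It rose in CDGC1 against control (1.59, adjusted p = 0.000192), where the type IV sum was below control.

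Of 18 genes of basement membrane partners, 15 passed, with 3 higher and 2 lower in Dnd1-KD, 4 higher and 7 lower in CDGC1 and 1 higher and 4 lower in CDGC6 against control, and 5 higher and 5 lower in CDGC1 against CDGC6. Their medians were -0.14, -0.18, -0.18 and 0.08. The counts in Dnd1-KD were near the 20.7% of all genes called higher and the 15.5% called lower. In either direction 50.5% of all genes were called in CDGC1, 18.7% in CDGC6 and 47.2% in CDGC1 against CDGC6. Nid1, a linker of laminin and type IV collagen, averaged 21.2 ± 2.73 FPKM in Dnd1-KD and 13.6 ± 0.248 FPKM in control (0.59, adjusted p = 0.0199), and lost the call without either control library or Dnd1-KD replicate 1. Its relative Nid2 averaged 54.2 ± 3.31 FPKM in Dnd1-KD and 80.4 ± 1.13 FPKM in control (-0.56, adjusted p = 0.00486). Lama1, a laminin chain of early embryos, averaged 0.0928 ± 0.00219 FPKM in CDGC1, against 4.69 ± 0.153 FPKM in control (-2.38, adjusted p = 5.11e-05) and 3.36 ± 0.537 FPKM in CDGC6. Hspg2, the perlecan core protein, averaged 22.4 ± 0.309 FPKM in CDGC6 and 49.3 ± 1.36 FPKM in control (-1.10, adjusted p = 0.00510).

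Of 11 collagen receptors, 5 passed, with 1 higher and 1 lower in Dnd1-KD, 4 higher in CDGC1 and 0 in CDGC6 against control, and all 5 higher in CDGC1 against CDGC6. Over all genes 36.2%, 50.5%, 18.7% and 47.2% were called in either direction. The medians of the list were -0.19, 0.87, -0.06 and 0.93. Adgrg1, an adhesion receptor that binds type III collagen, averaged 11.2 ± 1.42 FPKM in CDGC1, 3.56 ± 0.110 FPKM in CDGC6 and 2.59 ± 0.197 FPKM in control (1.76 against control, adjusted p = 7.11e-05). Mrc2, which takes up collagen fragments, averaged 8.39 ± 1.43 FPKM in CDGC1, 2.46 ± 0.454 FPKM in CDGC6 and 1.43 ± 0.0269 FPKM in control (1.94, adjusted p = 0.000197). Of 14 collagen-degrading proteases and their inhibitors, 9 passed, with 2 higher and 1 lower in Dnd1-KD, 7 higher and 2 lower in CDGC1 and 2 higher and 1 lower in CDGC6 against control, and 4 higher and 2 lower in CDGC1 against CDGC6. The shares over all genes are those just given. The medians of this list were 0.03, 1.13, 0.11 and 0.46. The gelatinase Mmp2 averaged 0.609 ± 0.0144 FPKM in CDGC1, 7.28 ± 0.294 FPKM in CDGC6 and 4.88 ± 0.217 FPKM in control. It fell in CDGC1 (-1.87, adjusted p = 2.05e-05), while Mmp14, a membrane-bound protease that activates it, rose there (0.98, adjusted p = 0.000620).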

How the data were processed

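Each library has a Cufflinks gene table, per the file headers, with the authors' FPKM and an interval per entry. Cufflinks, Cuffdiff, Bowtie, TopHat2 and mm10 are named in the submitters' processing notes, with no role or version, and per the labels libraries were made with a TruSeq RNA kit. No read counts are given. Fragments were implied from each FPKM and its interval, whose precision covers counting and isoform assignment only. FPKM were summed per symbol, and symbols joined into 1 entry in any library were treated as 1 unit. Small RNA genes were left out. Units at 1 FPKM or more in 2 of 8 libraries (11890) were tested on log2(FPKM + 1) with limma 3.58.1 in R 4.3.3: all 8 libraries in 1 fit with a mean for each group, two-sided moderated tests with a trend, Benjamini-Hochberg adjustment over all units, threshold 0.05, tested on simulated data. Each collagen gene that passed is named. Of the other lists, up to 4 genes with the smallest adjusted p per comparison could be named. Joined entries of these lists were counted as units, and their differences are not given. Members and lists were chosen with earlier results of these data known.

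The closing section gives the effect of other choices: a pseudocount of 0.1 or 5, testing all genes or only those at 5 FPKM, scaling by quantiles or by median ratios, fits of just the groups compared, a replicate block, no trend, sums per symbol, the highest entry of a unit, a minimum difference of 1 on that scale, and leaving out single libraries. Values were handled in Python 3.11.15 with pandas 2.3.3.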

Additional observations from a re-analysis of the deposited data

Results flagged for a closer look

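The differences of CDGC1 and CDGC6 from the same control libraries were set against each other for the 19 collagen genes tested, which is the direct comparison of the lines. They differed in 8 genes at an adjusted p under 0.05 in limma. This is 42.1% of the 19, against 47.2% of all genes tested called in that comparison, so the number is no more than the background. On the log2(FPKM + 1) scale the difference of CDGC1 was above that of CDGC6 by 2.12 for Col5a1, by 1.0 for Col7a1, by 0.61 for Col27a1 and by 0.51 for Col12a1. It was below that of CDGC6 for Col9a2 (-1.84), Col2a1 (-0.96), Col18a1 (-0.52) and Col11a1 (-0.48). The implied fragments of Col5a1 overlapped between the lines. With 2 libraries a group, no library could be tested as standing apart from its group.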

How the results depend on the processing

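Of the 4 comparisons, the collagen calls of CDGC6 against control leaned most on single libraries. Leaving out each library in turn gave 5 to 7 collagen genes higher and 0 to 2 lower in Dnd1-KD, 10 to 12 and 4 to 5 in CDGC1, 2 to 7 and 0 to 2 in CDGC6, and 4 to 7 and 3 to 4 in CDGC1 against CDGC6. Over all genes the ranges were 834 to 2793 higher and 531 to 2141 lower in Dnd1-KD, 1872 to 2815 and 2187 to 3267 in CDGC1, 217 to 1355 and 205 to 1550 in CDGC6, and 2054 to 2607 and 2344 to 3109 in CDGC1 against CDGC6. The lowest counts of Dnd1-KD and CDGC6 came without control replicate 1. Where an arm kept 1 library, that library was assumed to vary like the other groups.

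Without a trend, 7 collagen genes were lower in CDGC1 against control, with Col4a2 and Col4a5 added. With no filter, 10 collagen genes were higher and 2 lower in Dnd1-KD, 13 were lower in CDGC1 against control and 13 against CDGC6. With a filter of 5 FPKM, which tests fewer genes, 2 were higher in Dnd1-KD, 4 higher and 2 lower in CDGC1, 2 higher in CDGC6, and 2 higher and 1 lower in CDGC1 against CDGC6, where 1896 of all genes were lower. Quantile normalization gave 11 higher in CDGC1 against CDGC6 and turned Col4a5 in CDGC1 against control to 0.30 and Col11a1 in CDGC1 against CDGC6 to 0.08, and the cause was not tested. Fitting only Dnd1-KD and control gave 9 collagen genes higher, with Col1a1, Col1a2 and Col5a2 added, and 2 lower, with Col6a2 added.

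A minimum difference of 1 on the log2(FPKM + 1) scale, which asks for more than a 2-fold ratio of FPKM at low levels, left 363 of all genes higher and 186 lower in Dnd1-KD, 792 and 1138 in CDGC1, 229 and 167 in CDGC6, and 624 and 1036 in CDGC1 against CDGC6. Of the collagen genes it left 0 lower in Dnd1-KD, 6 higher and 2 lower in CDGC1, 0 lower in CDGC6, and 1 higher and 1 lower in CDGC1 against CDGC6.

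The differences between replicate 1 and replicate 2 correlated between groups at -0.049 to 0.121, the highest between control and Dnd1-KD. In control and Dnd1-KD, replicate 1 had 18.0 M and 17.7 M implied fragments and replicate 2 had 12.6 M and 10.7 M. Whether replicates of the same number share a batch was not tested. With the replicate number as a block, the collagen counts stayed at 6 higher and 1 lower in Dnd1-KD, 11 and 5 in CDGC1, 7 and 2 in CDGC6, and 4 and 4 in CDGC1 against CDGC6, and no collagen call changed. Over all genes it gave 774 higher and 914 lower in CDGC6. Col6a3 in the ES cell groups (0.4 to 5.9 implied fragments) and Col16a1 in control (21.0 and 14.9) rest on few fragments, and a fold against them is poorly set.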

Other observations

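Collagen genes under the filter showed group differences at low levels in the fit without a filter, where 18739 units were tested. Col8a1, a short-chain collagen of vessel walls and the eye, was at 0.810 and 0.576 FPKM in Dnd1-KD, 0.723 and 0.545 FPKM in CDGC1, 0.448 and 0.527 FPKM in CDGC6 and 0.0967 and 0.125 FPKM in control. It was called higher in Dnd1-KD (0.60 ± 0.08, adjusted p = 0.00679), CDGC1 (0.56 ± 0.08, adjusted p = 0.00413) and CDGC6 (0.42 ± 0.08, adjusted p = 0.0317) in limma, with the control libraries shared by all 3. Col22a1, known from the junctions of muscle and tendon, was at 0.824 and 0.856 FPKM in Dnd1-KD, 0.0474 and 0.0813 FPKM in CDGC1, 0.279 and 0.147 FPKM in CDGC6 and 0.360 and 0.378 FPKM in control. It was called higher in Dnd1-KD (0.43 ± 0.05, adjusted p = 0.00530) and lower in CDGC1 (-0.36 ± 0.05, adjusted p = 0.00384). Both genes were chosen after their values were seen.

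In that fit, 4 of the members under the filter were higher and 1 lower in Dnd1-KD against control, where 18.0% of all units were called higher and 10.5% lower. In CDGC1 4 were higher and 7 lower, against 16.5% and 24.2% of all units. In CDGC6 3 were higher and 0 lower, against 5.85% and 7.40%. CDGC1 against CDGC6 had 1 higher and 9 lower, against 15.4% and 20.8%.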
